A study of Homo sapiens with 6 samples.

Results

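The genes that encode matrix metalloproteinases (MMPs), ADAMTS proteases, tissue inhibitors of metalloproteinases (TIMPs) and the plasminogen activators with their receptor were taken by symbol from the gene table of an RNA-seq experiment in PANC-1, an established cell line of human pancreatic ductal adenocarcinoma (PDAC). Every gene named MMP or ADAMTS with a number was included, together with TIMP1 to TIMP4, PLAU, PLAUR and PLAT. This gave 50 of the 62703 genes listed: 24 MMP genes, 19 ADAMTS genes, 4 TIMP genes and 3 genes of the plasminogen activator system.

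The experiment asked which genes change when e1, the core component enhancer of the super-enhancer DKK1-SE, is removed by CRISPR-Cas9. DKK1-SE-/- cells lack e1 on both alleles and come from a single homozygous clone, and DKK1-SE+/+ cells are wild-type PANC-1. Each genotype has 3 samples labelled as biological replicates, and the expected counts summed to between 16475810 and 21822314 per sample. The p-values below therefore measure the spread between these samples and not the spread between clones, and the effect of e1 and of the clone cannot be told apart.

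The extracellular matrix is remodelled by secreted and membrane-bound proteases that are made as inactive precursors. MMPs are zinc endopeptidases that cleave collagens, laminins and other matrix proteins, and TIMPs bind their active site and block it. ADAMTS proteases are secreted relatives that trim proteoglycans and procollagens, and the plasminogen activators turn plasminogen into plasmin, which cleaves fibrin and activates several MMP precursors. PDAC is surrounded by a dense collagen-rich stroma, and tumor cells and stromal cells both supply these enzymes.

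DKK1, the target gene of the super-enhancer, was examined first as a check of the labels. Its level in TPM, a transcript abundance corrected for length and scaled to the same total in each sample, was 229, 246 and 198 in the DKK1-SE+/+ samples and 66.8, 79.8 and 82.7 in the DKK1-SE-/- samples. All 3 DKK1-SE-/- samples lay below all 3 DKK1-SE+/+ samples, with a log2 fold change from counts of -1.45 ± 0.11 (SE; edgeR, Benjamini-Hochberg adjusted p = 6.16e-06).

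Levels of the ductal markers differed widely. Mean TPM in DKK1-SE+/+ and DKK1-SE-/- were 957 and 1560.0 for KRT8, 856 and 1213 for KRT18, 53.9 and 172 for KRT19, 13.3 and 17.2 for KRT7, and 4.17 and 2.58 for EPCAM. Of 5 ductal epithelial markers, KRT19, KRT8 and KRT18 were higher in DKK1-SE-/-, EPCAM was lower and KRT7 was not called, beside 39.3% called among all genes tested (19.8% higher, 19.5% lower). Markers of other cell types were mostly near 0. The leukocyte marker PTPRC had at most 1 count in any sample, as did CD3E and CD163, while CD68, a lysosomal protein that epithelial cells also make, rose from 43.5 ± 2.81 to 66.6 ± 1.61 TPM (SD, n = 3). CD68 was the most abundant of the 6 leukocyte markers. Their TPM summed to 45.2, 43.9 and 47.4 in DKK1-SE+/+ and 69.8, 66.9 and 68.8 in DKK1-SE-/-. CD14 was higher as well, but passed the filter on low counts mainly through DKK1-SE-/-. Its counts were 12, 4 and 9 in DKK1-SE+/+ against 20, 32 and 26. ITGAM, at a mean of 1.52 and 0.563 TPM, was not called (-0.52 ± 0.38, SE). Thus 2 of the 3 leukocyte markers tested were called higher, beside 19.8% of all genes tested. Of 7 fibroblast markers only THY1 and COL3A1 passed the filter on low counts, COL3A1 was higher, FAP had no count in any sample, and the sum was 5.47, 4.26 and 6.23 TPM against 6.29, 9.21 and 6.64 TPM. By mean TPM, THY1 led this sum in DKK1-SE+/+ (2.83 beside 1.58 for COL3A1) and COL3A1 led it in DKK1-SE-/- (3.77 beside 3.26 for THY1). Of 5 endothelial markers, KDR, the receptor for VEGF and the most abundant of them, was the only gene tested and was lower, so that the sum fell from 2.54, 2.57 and 2.12 TPM to 0.48, 0.58 and 0.62 TPM. The part of these markers in the changes of the protease genes was not tested.

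Of the 50 protease, inhibitor and receptor genes, 22 had enough counts to be tested and 28 did not. Genes called at a Benjamini-Hochberg adjusted p under 0.05 in edgeR's quasi-likelihood test numbered 17 of the 22. Of these, 11 were higher in DKK1-SE-/- cells and 6 were lower, and MMP15, MMP25, ADAMTS13, ADAMTS15 and TIMP2 were not called. Among all 15179 genes tested, 39.3% were called, 19.8% as higher and 19.5% as lower, so a called gene was common in this comparison. The median log2 fold change of the 22 tested genes was 0.37 beside 0.03 over all genes tested, and the median absolute log2 fold change was 0.92 beside 0.38. These medians and counts include genes that passed the filter mainly through the genotype in which they were high.

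The study's methods give a limit on the absolute fold change without naming a log2 scale, and the log2 reading was chosen here. At an unadjusted p under 0.05 and a log2 fold change of 1.2 or more in either direction, 5 genes were up (MMP1, MMP19, ADAMTS10, TIMP3 and PLAT) and 3 were down (MMP14, ADAMTS14 and ADAMTS7). Over all genes tested, 4.96% were up and 3.7% were down at these limits. With 1.2 read as a linear fold change, 11 of the 22 were up and 6 were down, beside 24.3% and 23.3% of all genes tested. TPM of the 2 genotypes did not overlap for 17 of the 22 tested genes, and for 44.2% of all genes tested. The filter itself favoured change in 5 of the 22: MMP14, MMP19, ADAMTS14, ADAMTS7 and TIMP3 reached the minimum count only in some samples, and 17 reached it in all 6. Limited to those 17, a choice made after seeing the data, 12 were called, 9 as higher and 3 as lower, beside 40.3%, 19.5% and 20.9% of the 13319 genes that reached it in all 6. At p under 0.05 and the log2 limit of 1.2, 3 of the 17 were up and 0 were down in edgeR, beside 2.37% and 2.82%. Their median absolute log2 fold change was 0.66 beside 0.35.

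**Figure D1:**
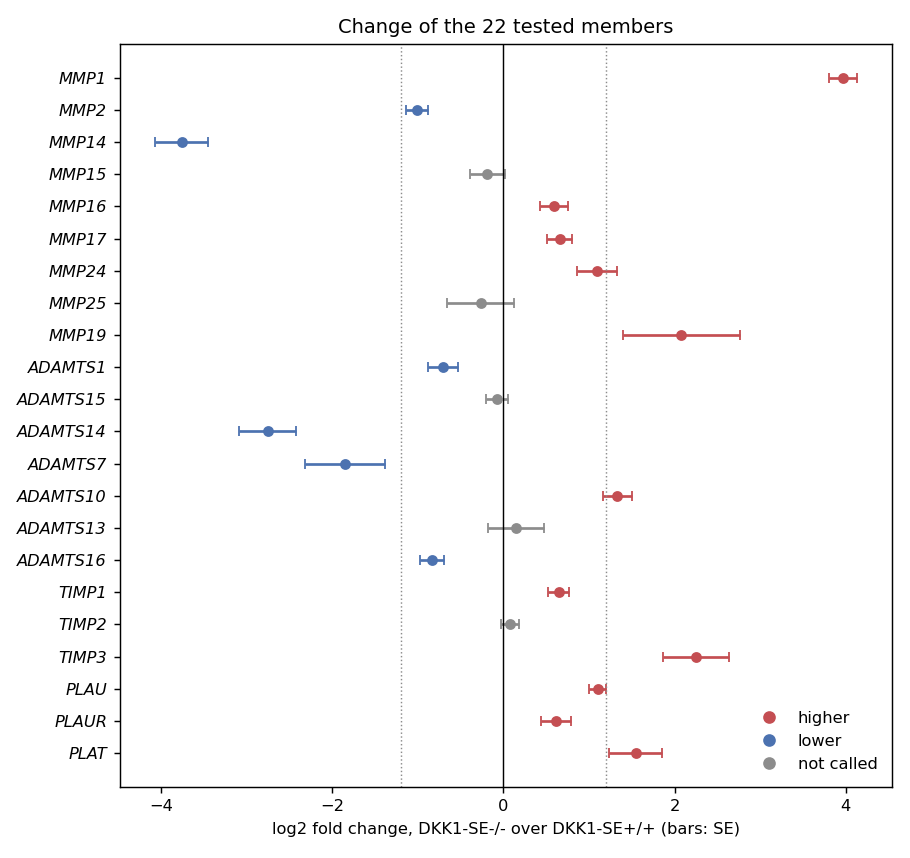
Log2 fold change of DKK1-SE-/- over DKK1-SE+/+ for the 22 tested genes, with bars for the standard error, dotted lines at a log2 fold change of 1.2 in each direction, and color for genes called higher, lower or not called. MMP1 lies farthest to the right at 3.97 and MMP14 farthest to the left at -3.76.

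The most abundant of these transcripts in DKK1-SE+/+ cells was PLAU at 436 ± 7.44 TPM (SD, n = 3), followed by TIMP1 at 216 ± 11.2 TPM, TIMP2 at 51.7 ± 3.58 TPM and MMP2 at 50.7 ± 4.51 TPM. TIMP2 and MMP2 overlapped, and the steps from PLAU to TIMP1 and from TIMP1 to TIMP2 exceeded the spread of the samples. In DKK1-SE-/- cells PLAU, TIMP1 and TIMP2 kept the first 3 places, whereas MMP1 moved from place 13 to place 4 and MMP14 from place 10 to place 23.

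To place the changed genes beside their regulatory sequence, promoters were taken from RefSeq (GRCh38.p14), each spanning 250 bases before to 50 bases after the gene start, and 29 of the 50 genes were matched by symbol, ADAMTS10 and PLAU with 2 starts each. Both strands were searched for TGANTCA, the core letters of the AP-1 element known from MMP promoters, for AGGAAG, the PEA3/ETS letters, and for TATAAA. None of the 3 strings contains another, and each was counted separately. Of the 4 genes with the largest changes, MMP14, ADAMTS14 and TIMP3 were matched and are shown over the 200 bases before their start, at chr14:22836385-22836584, chr10:70672306-70672505 and chr22:32801505-32801704, all on the plus strand, 5' to 3'. MMP1 was not matched. The 3 windows held none of the motifs and carry no capitals. Starts here are those of RefSeq and can differ from the GENCODE positions given elsewhere. GENCODE places the MMP14 start at chr14:22836560, inside the printed window.
MMP14: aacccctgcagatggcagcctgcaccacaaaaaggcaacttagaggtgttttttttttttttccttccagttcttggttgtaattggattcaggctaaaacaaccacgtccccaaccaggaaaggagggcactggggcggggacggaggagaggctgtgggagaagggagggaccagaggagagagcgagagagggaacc
ADAMTS14: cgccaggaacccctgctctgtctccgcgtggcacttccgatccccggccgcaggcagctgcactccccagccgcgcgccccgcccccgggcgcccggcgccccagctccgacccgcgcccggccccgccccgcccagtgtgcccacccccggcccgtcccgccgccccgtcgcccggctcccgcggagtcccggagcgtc
TIMP3: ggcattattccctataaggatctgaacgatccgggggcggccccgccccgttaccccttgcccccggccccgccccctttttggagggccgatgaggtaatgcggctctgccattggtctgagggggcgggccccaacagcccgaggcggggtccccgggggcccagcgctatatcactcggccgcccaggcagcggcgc

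PLAUR, MMP10 and MMP7 are shown as well, 3 of the 5 matched genes that hold the AP-1 letters, a choice made after their values were seen. MMP20, another neighbor of MMP1, and ADAMTS12 also hold them, beginning at bases -112 and -84, and are not shown. PLAUR was the only matched gene among those called with TGANTCA in the window, and MMP10 and MMP7 are neighbors of MMP1 on chromosome 11. Their windows, again the 200 bases before the start on the minus strand, are chr19:43670170-43670369, chr11:102780629-102780828 and chr11:102530748-102530947. Capitals mark the motifs, with CTTCCT being AGGAAG read on the other strand.
PLAUR: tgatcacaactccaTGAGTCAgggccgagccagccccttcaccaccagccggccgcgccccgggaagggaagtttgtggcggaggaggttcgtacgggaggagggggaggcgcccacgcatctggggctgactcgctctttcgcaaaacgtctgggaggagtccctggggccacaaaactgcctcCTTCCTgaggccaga
MMP10: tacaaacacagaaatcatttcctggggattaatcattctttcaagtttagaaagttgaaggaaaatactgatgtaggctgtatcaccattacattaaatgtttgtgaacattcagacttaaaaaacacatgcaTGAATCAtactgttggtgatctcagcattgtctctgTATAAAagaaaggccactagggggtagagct
MMP7: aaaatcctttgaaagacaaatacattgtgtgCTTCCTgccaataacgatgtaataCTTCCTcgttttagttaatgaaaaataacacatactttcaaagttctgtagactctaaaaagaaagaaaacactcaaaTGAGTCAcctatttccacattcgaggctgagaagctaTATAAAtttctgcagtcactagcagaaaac

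The AP-1 letters began at base -186 in PLAUR and at base -67 in both MMP10 and MMP7, counted back from the RefSeq start. GENCODE places the PLAUR start farther upstream, at chr19:43670547, so the whole printed window of PLAUR lies inside the GENCODE gene. TGANTCA was present in 5 of the 29 matched genes, 1 of 6 called higher, 0 of 3 called lower, 0 of 2 not called and 4 of 18 not tested, and in 7.71% of all 35116 promoters. AGGAAG was present in 8 of the 29 genes, 4 of 6 called higher, 0 of 3 called lower, 1 of 2 not called and 3 of 18 not tested, beside 33.6% of all promoters. ADAMTS10 and PLAU, 2 of those 4, held it at 1 of their 2 starts. Counted over the 31 promoters of these genes, the 3 strings were present in 5, 8 and 7. TATAAA was present in 7 of the 29 genes, of which 6 were not tested, beside 11.5% of all promoters. A match describes the letters only.

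MMP1, the interstitial collagenase that makes the first cut in fibrillar collagens, rose most in fold. TPM of MMP1 were 2.32, 1.95 and 2.15 in DKK1-SE+/+ and 24.1, 31.4 and 36.0 in DKK1-SE-/-. Every DKK1-SE-/- sample stood far above every DKK1-SE+/+ sample. This was a log2 fold change of 3.97 ± 0.17 (SE; edgeR, Benjamini-Hochberg adjusted p = 1.35e-07), or 15.7-fold, and 92 of all tested genes rose by more. The gene lies at chr11:102789401-102798160 (hg38) on the minus strand. In bulk RNA, a change in the number of cells that express a gene and a change in its RNA per cell cannot be told apart. The other collagenases were hardly detected, as MMP8 had no count in any sample and MMP13 had at most 2.

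MMP2, gelatinase A, degrades denatured collagen and type IV collagen of basement membranes. It gave 45.8, 51.5 and 54.7 TPM in DKK1-SE+/+ and 24.2, 19.1 and 22 TPM in DKK1-SE-/-. The genotypes were well apart, with all DKK1-SE-/- samples low and a log2 fold change of -1.01 ± 0.13 (SE; edgeR, Benjamini-Hochberg adjusted p = 0.00016). With a GC-content offset it was -1.27, past the log2 limit of 1.2. MMP9, gelatinase B, was not tested, with 6, 0 and 2 counts in DKK1-SE+/+ and 13, 8 and 8 counts in DKK1-SE-/-.

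The membrane-type MMPs act at the cell surface, and all 6 of their genes were tested. MMP14 encodes the main surface activator of the MMP2 precursor, with TIMP2 as the bridge. Its TPM were 4.31, 3.25 and 2.97 in DKK1-SE+/+ and 0.21, 0.30 and 0.28 in DKK1-SE-/-. No DKK1-SE-/- sample came near the DKK1-SE+/+ samples. Counts were 105, 91 and 103 against 9, 5 and 6, a log2 fold change of -3.76 ± 0.31 (SE; edgeR, Benjamini-Hochberg adjusted p = 9.64e-06), and 32 of all tested genes fell by more. MMP14 lies at chr14:22836560-22849041 on the plus strand.

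MMP17, which is held at the membrane by a glycolipid anchor, was the most abundant gene of this class. In DKK1-SE+/+ it gave 12.1, 13.5 and 14.3 TPM, and in DKK1-SE-/- 20.8, 18.4 and 18.6 TPM. All DKK1-SE-/- samples were above the DKK1-SE+/+ samples, with a log2 fold change of 0.66 ± 0.15 (SE; edgeR, Benjamini-Hochberg adjusted p = 0.00491). The call was lost with a GC-content offset, where the log2 fold change was 0.27, and over all 16 alternatives the edgeR, DESeq2 or limma Benjamini-Hochberg adjusted p lay between 0.000297 and 0.0834.

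MMP24, a transmembrane protease best known from the nervous system, was low throughout. TPM of MMP24 were 0.60, 0.79 and 0.99 in DKK1-SE+/+ and 1.66, 1.39 and 1.49 in DKK1-SE-/-. The DKK1-SE-/- samples were all higher, with a log2 fold change of 1.09 ± 0.24 (SE; edgeR, Benjamini-Hochberg adjusted p = 0.00416), and the call was lost in limma at a mean of at least 1 TPM (0.49). The gene MMP24OS, on the opposite strand, shares exon sequence with MMP24 and had between 291 and 349.7 counts in DKK1-SE+/+ and between 431 and 629.9 in DKK1-SE-/-. An unnamed gene on that strand also shares exon sequence with MMP24 and was lower in DKK1-SE-/-. It had 33.43, 21.37 and 63.3 counts in DKK1-SE+/+ and 14.63, 13.61 and 19.88 in DKK1-SE-/-. The strand setting of the authors' counting is not given in the sources used here, so reads of these genes cannot be told apart.

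MMP16, another transmembrane member, gave 1.38, 1.33 and 1.51 TPM in DKK1-SE+/+ and 2.95, 2.84 and 5.30 TPM in DKK1-SE-/-. All DKK1-SE-/- samples were higher, and replicate 3 stood above the other 2. The log2 fold change from counts was 0.59 ± 0.17 (SE; edgeR, Benjamini-Hochberg adjusted p = 0.0158), and the call was lost without DKK1-SE+/+ replicate 2 or replicate 3, at 0.58 and 0.57. MMP15 was at 4.02 ± 0.23 and 3.15 ± 0.755 TPM (SD, n = 3) with a log2 fold change of -0.19 ± 0.20 (SE), and MMP25, which shares exons with MMP25-AS1, at 0.71 ± 0.25 and 0.47 ± 0.0458 TPM with -0.27 ± 0.39 (SE). Neither was called, although MMP15 was called lower with a GC-content offset, at -0.57.

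Summed over the class, membrane-type transcripts came to 23.7 ± 1.17 TPM in DKK1-SE+/+ and 28.4 ± 1.7 TPM in DKK1-SE-/- (SD, n = 3). The share of MMP14 in this sum was 14.9% ± 3.7 in DKK1-SE+/+ and 0.936% ± 0.217 in DKK1-SE-/-, while MMP17 went from 56.0% ± 2.18 to 68.0% ± 2.47 and MMP16 from 5.92% ± 0.247 to 13.0% ± 4.79. The sums did not overlap, at 22.7 to 25.0 and 26.6 to 30.0 TPM, and MMP17 remained the largest part of both. This gap rests in part on MMP16, whose TPM rose by more than its counts. Its log2 ratio was 1.39 in TPM beside 0.59 in counts, so the sum and the share of MMP16 hold for the TPM scale only.

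**Figure D2:**
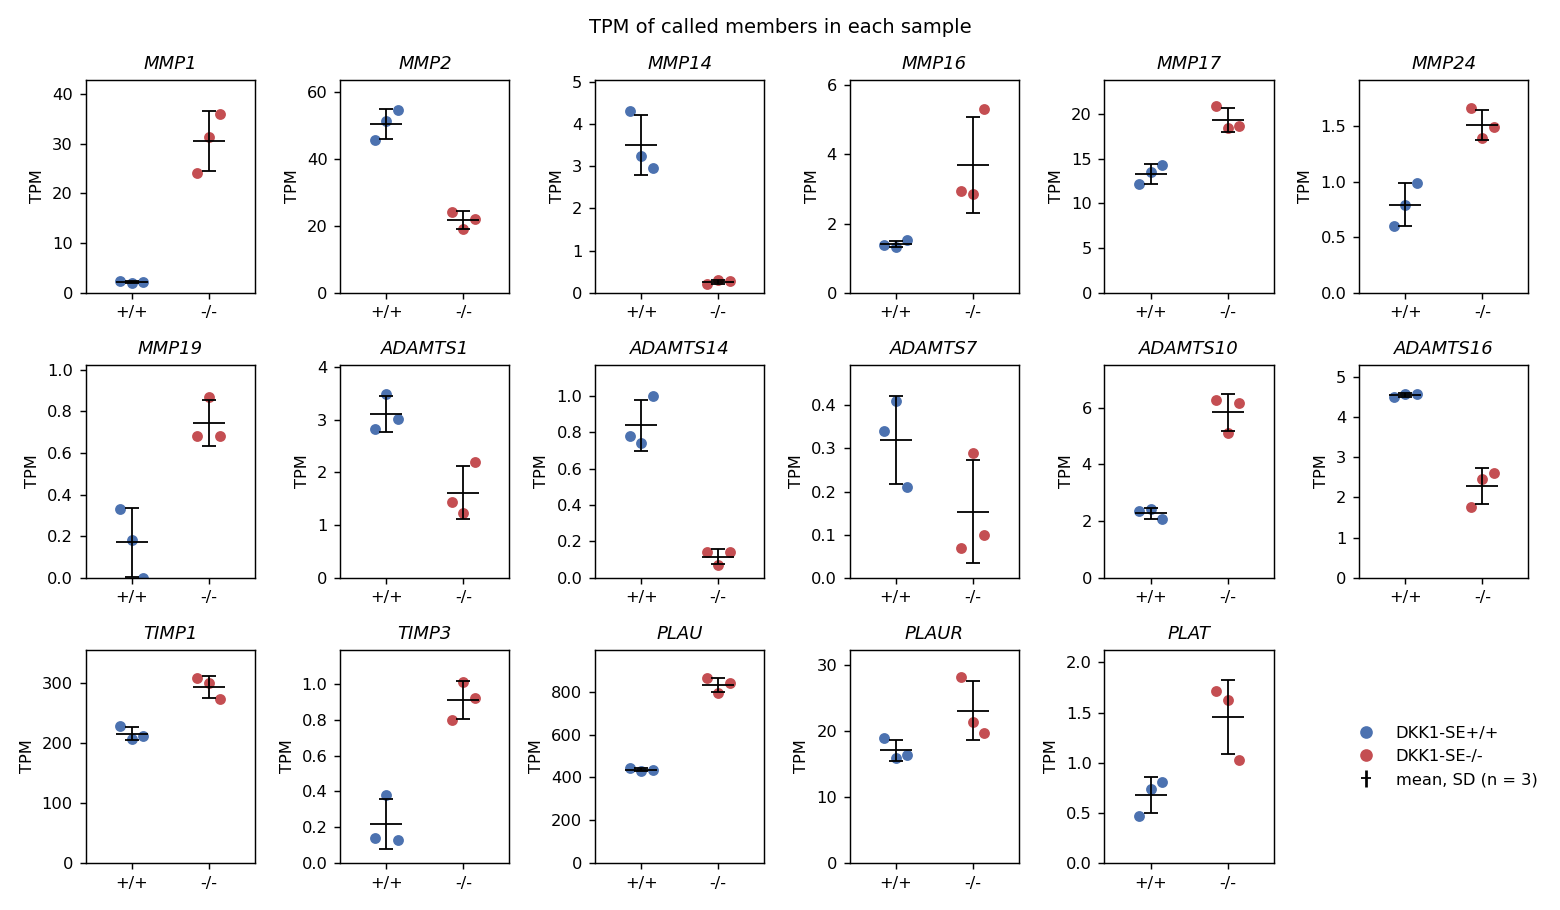
TPM of the 17 called genes in each sample, with 3 DKK1-SE+/+ samples (+/+) and 3 DKK1-SE-/- samples (-/-) per panel and a bar for the mean with its SD; each vertical axis is linear and starts at 0. The genotypes do not overlap in 16 of the 17 panels, and ADAMTS7 is the exception.

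MMP19, a secreted protease that cleaves basement membrane proteins, was near the limit of detection. TPM were 0.33, 0.18 and 0 in DKK1-SE+/+ and 0.68, 0.87 and 0.68 in DKK1-SE-/-. The DKK1-SE-/- samples were all higher, and the DKK1-SE+/+ samples were far from each other. MMP19 had a log2 fold change of 2.08 ± 0.68 (SE; edgeR, Benjamini-Hochberg adjusted p = 0.0322). It depended on single libraries, being 3.48 without DKK1-SE+/+ replicate 1, and the call was lost without DKK1-SE+/+ replicate 2 (1.94), DKK1-SE+/+ replicate 3 (1.52) or DKK1-SE-/- replicate 2 (1.76). MMP19 also shares exon sequence with TMEM198B on the opposite strand, which had between 72.2 and 111 counts.

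All 24 MMP genes together gave 72.9, 78.8 and 83.8 TPM in DKK1-SE+/+ and 80.7, 80.3 and 89.4 TPM in DKK1-SE-/-. The sums overlapped, at 78.5 ± 5.46 and 83.5 ± 5.17 TPM (SD, n = 3). MMP2 supplied 64.5% of the sum in DKK1-SE+/+ and 26.1% in DKK1-SE-/-. The ratio of MMP1 to MMP2 in TPM was 0.0507, 0.0379 and 0.0393 in DKK1-SE+/+ and 0.996, 1.64 and 1.64 in DKK1-SE-/-, so the collagenase transcript went from a small fraction of the gelatinase transcript to about the same level or above it.

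**Figure D3:**
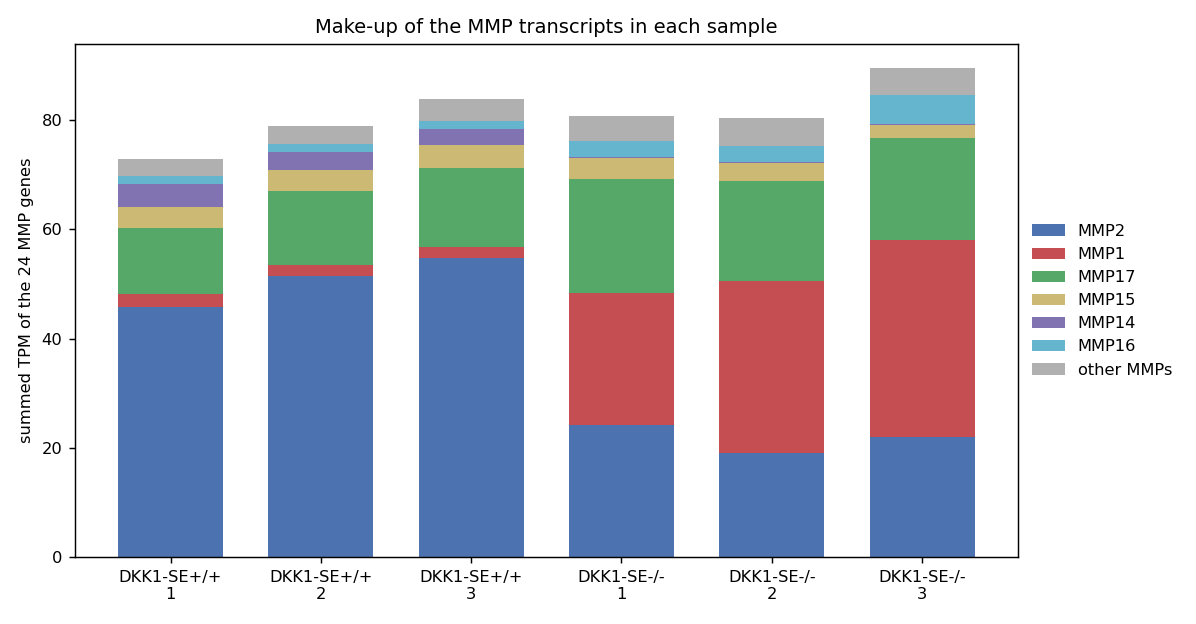
Summed TPM of the 24 MMP genes in each of the 6 samples, stacked by gene, with the 6 genes named in the key and all other MMP genes in gray. The bar heights overlap between genotypes, at 72.9 to 83.8 and 80.3 to 89.4 TPM, while the MMP1 segment is larger in every DKK1-SE-/- sample and the MMP2 segment in every DKK1-SE+/+ sample.

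MMP1 belongs to a row of 9 MMP genes that spans 435 kb at chr11:102520508-102955732. Only MMP1 had enough counts to be tested. MMP10, a stromelysin whose gene start lies at -17.5 kb from that of MMP1, had 0, 0 and 0 counts in DKK1-SE+/+ and 5, 3 and 1 in DKK1-SE-/-. MMP7, the matrilysin of glandular epithelium, had 5, 4 and 3 counts in DKK1-SE+/+ and 0, 0 and 2 in DKK1-SE-/-. Both were below the filter on low counts. MMP3, MMP12, MMP13 and MMP20 had at most 3 counts in any sample, and MMP8 and MMP27 had none.

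Of the 5 tested genes on each side of this row, 4 were called lower and 1 was called higher, beside 39.3% called among all genes tested. TMEM123, the nearest on the BIRC side, had a log2 fold change of -1.36 ± 0.12, and BIRC3 and BIRC2, which encode inhibitors of apoptosis, had -0.98 ± 0.19 and -0.78 ± 0.17 (SE). MSANTD4 was lower as well at -1.14 ± 0.18, and CASP4, an inflammatory caspase, was higher at 0.86 ± 0.17 (SE). YAP1, DCUN1D5, DYNC2H1, CARD18 and an unnamed gene beside BIRC2 were not called. CASP4, CARD18 and MSANTD4 are not close neighbors, as they start 2171, 2734 and 3224 kb from the MMP1 start.

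**Figure D4:**
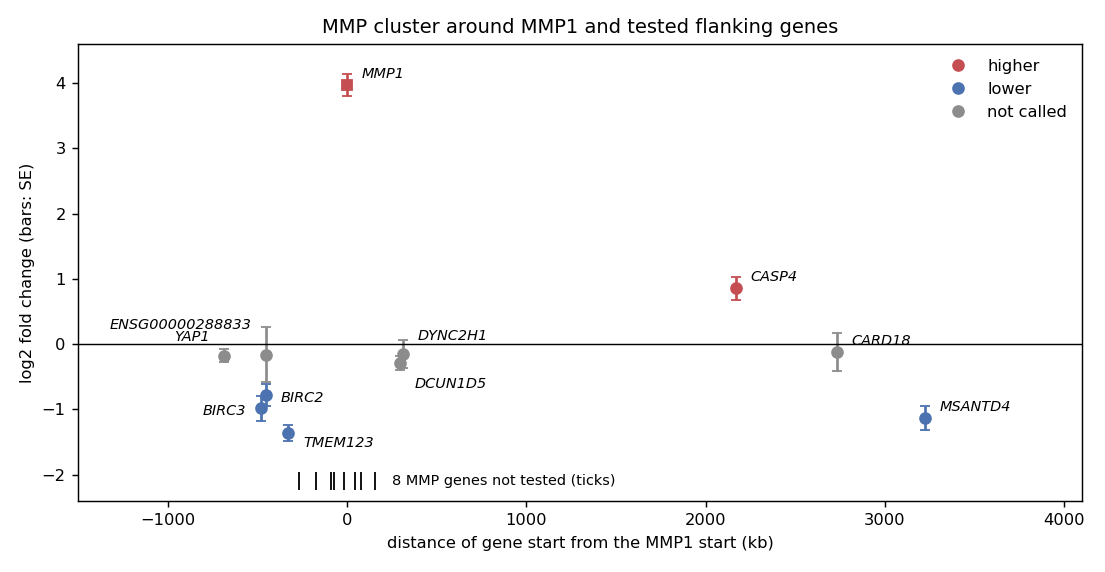
Log2 fold change (bars, SE) against the distance in kb of each gene start from the MMP1 start, with MMP1 as a square, tested flanking genes as circles, and ticks for the 8 MMP genes that were not tested. MMP1 stands at 3.97, and the flanking genes lie between -1.36 and 0.86.

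Among the inhibitors, TIMP1, which blocks most secreted MMPs, was the most abundant. TIMP1 stood at 229, 208 and 212 TPM in DKK1-SE+/+ and 309, 300.0 and 274 TPM in DKK1-SE-/-. All DKK1-SE-/- samples were above the DKK1-SE+/+ samples, with a log2 fold change of 0.65 ± 0.12 (SE; edgeR, Benjamini-Hochberg adjusted p = 0.00173). TIMP3, which binds to the matrix and also inhibits ADAM and ADAMTS proteases, gave 0.14, 0.38 and 0.13 TPM in DKK1-SE+/+ and 0.80, 1.01 and 0.92 TPM in DKK1-SE-/-. These samples did not overlap either, although DKK1-SE+/+ replicate 2 was above the other 2. TIMP3 had a log2 fold change of 2.26 ± 0.39 (SE; edgeR, Benjamini-Hochberg adjusted p = 0.00112), and of 2.86 without that replicate.

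TIMP2, the inhibitor that also takes part in MMP2 activation, was at 51.7 ± 3.58 TPM in DKK1-SE+/+ and 49.0 ± 4.74 TPM in DKK1-SE-/- (SD, n = 3). The samples overlapped, and the log2 fold change was 0.08 ± 0.11 (SE; edgeR, Benjamini-Hochberg adjusted p = 0.612). TIMP4 had at most 1 count. The 4 inhibitors summed to 268 ± 8.47 TPM in DKK1-SE+/+ and 344 ± 17.6 TPM in DKK1-SE-/-, and the ratio of summed MMP to summed TIMP transcripts was 0.263, 0.303 and 0.314 in DKK1-SE+/+ and 0.223, 0.233 and 0.274 in DKK1-SE-/-. Replicate 1 of DKK1-SE+/+ lay within the DKK1-SE-/- range, so the ratios overlapped.

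All 3 genes of the plasminogen activator system were called higher in DKK1-SE-/- cells, beside 19.8% of all genes tested, although PLAUR was not called in 8 of 16 alternatives and PLAT in 1. PLAU encodes urokinase, the activator that works on the cell surface. Its level was 444, 430.0 and 434 TPM in DKK1-SE+/+ and 864, 797 and 841 TPM in DKK1-SE-/-. Each genotype was tight and the gap between them was wide, with a log2 fold change of 1.10 ± 0.10 (SE; edgeR, Benjamini-Hochberg adjusted p = 1.83e-05). By mean TPM over all listed genes PLAU went from rank 261 to rank 135. PLAU lies at chr10:73909177-73917496, on the same chromosome as DKK1, and shares exon sequence with C10orf55 on the opposite strand, which had between 61.8 and 195 counts beside at least 11387 of PLAU.

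PLAUR, the anchored receptor that holds urokinase at the cell surface, gave 18.8, 15.8 and 16.3 TPM in DKK1-SE+/+ and 28.1, 21.3 and 19.7 TPM in DKK1-SE-/-. The DKK1-SE-/- samples were higher but only just, and replicate 1 stood above the other 2. The log2 fold change was 0.61 ± 0.17 (SE; edgeR, Benjamini-Hochberg adjusted p = 0.0175). This call was lost in 8 of 16 alternatives, including those without DKK1-SE+/+ replicate 1 (0.61), replicate 2 (0.59) or replicate 3 (0.59) and without DKK1-SE-/- replicate 1 (0.39).

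PLAT, tissue plasminogen activator, which acts mainly on fibrin, was low. TPM of PLAT were 0.47, 0.74 and 0.81 in DKK1-SE+/+ and 1.71, 1.63 and 1.03 in DKK1-SE-/-. The lowest DKK1-SE-/- sample, replicate 3, was still above the highest DKK1-SE+/+ sample. The log2 fold change was 1.55 ± 0.31 (SE; edgeR, Benjamini-Hochberg adjusted p = 0.0027), and the call was lost in limma at a mean of at least 1 TPM (0.55). The ratio of PLAU to PLAUR in TPM was 25.8 ± 1.9 in DKK1-SE+/+ and 37.0 ± 5.99 in DKK1-SE-/- (SD, n = 3), without overlap.

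Of 14 genes for plasminogen, its surface receptors, activating proteases and inhibitors, 9 were tested, 6 were higher and 3 were not called, with a median log2 fold change of 0.36. Over all genes tested 19.8% were higher and the median was 0.03. S100A10, a plasminogen receptor subunit, rose from 650.0 ± 13.2 to 1099 ± 35.9 TPM (SD, n = 3) with a log2 fold change of 0.94 ± 0.10 (SE). The inhibitors SERPINB2 and SERPINE2 had 2.72 ± 0.65 and 0.76 ± 0.21 (SE). SERPINB2, counted among the 6, passed the filter on low counts mainly through DKK1-SE-/-. Its counts were 0, 5.9 and 5 in DKK1-SE+/+ against 16.57, 30 and 24. PLG itself, the plasminogen gene, had at most 3 counts, and the S100A10 partner ANXA2 was not called.

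Of the 19 ADAMTS genes 7 were tested, 1 was higher and 4 were lower, with a median log2 fold change of -0.71. Among all genes tested 19.8% were higher and 19.5% lower. For the 24 MMP genes, of which 9 were tested, 5 were higher and 2 were lower, with a median of 0.59, and a difference between the families was not tested. These counts and medians include genes that the filter on low counts favoured. ADAMTS14, ADAMTS7 and MMP14 reached the minimum count in every DKK1-SE+/+ sample but not in every DKK1-SE-/- sample, and MMP19 the reverse. Only 5 of the tested ADAMTS genes and 7 of the tested MMP genes reached it in all 6 samples. ADAMTS1, which cleaves aggrecan and versican, gave 2.83, 3.49 and 3.02 TPM in DKK1-SE+/+ and 1.43, 1.23 and 2.19 TPM in DKK1-SE-/-. All DKK1-SE-/- samples were lower, with replicate 3 closest to DKK1-SE+/+. The log2 fold change was -0.71 ± 0.18 (SE; edgeR, Benjamini-Hochberg adjusted p = 0.00941). ADAMTS15, another protease of proteoglycans and the most abundant ADAMTS transcript, was at 8.09 ± 0.797 and 6.91 ± 0.849 TPM (SD, n = 3). Its TPM did not overlap, yet the log2 fold change from counts was -0.08 ± 0.13 (SE) and was not called, and with a GC-content offset it was -0.36 and called.

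ADAMTS14 removes the amino-terminal propeptide of fibrillar procollagens. TPM of ADAMTS14 were 0.78, 0.74 and 1.00 in DKK1-SE+/+ and 0.14, 0.07 and 0.14 in DKK1-SE-/-. Every DKK1-SE-/- sample was far below the DKK1-SE+/+ samples, at 10, 6 and 10 counts against 70, 50 and 74. The log2 fold change was -2.75 ± 0.34 (SE; edgeR, Benjamini-Hochberg adjusted p = 0.000136), and 75 of all tested genes fell by more. In limma it was -0.718 on log2(TPM + 1) and -2.13 on log2(TPM + 0.1), and was called on both. The gene lies at chr10:70672506-70762441, also on the chromosome of DKK1. ADAMTS2 and ADAMTS3, the related procollagen proteases, were not tested and reached at most 20 and 25 counts.

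ADAMTS16 gave 4.50, 4.58 and 4.56 TPM in DKK1-SE+/+ and 1.76, 2.46 and 2.60 TPM in DKK1-SE-/-. The DKK1-SE+/+ samples were nearly equal and all above DKK1-SE-/-, with a log2 fold change of -0.84 ± 0.14 (SE; edgeR, Benjamini-Hochberg adjusted p = 0.000993). ADAMTS7, which cleaves cartilage oligomeric matrix protein, gave 0.34, 0.41 and 0.21 TPM in DKK1-SE+/+ and 0.07, 0.29 and 0.10 TPM in DKK1-SE-/-. These ranges overlapped, through DKK1-SE-/- replicate 2, although counts did not, at 23, 26.8 and 16 against 4.48, 9 and 4. ADAMTS7 had a log2 fold change of -1.85 ± 0.47 (SE; edgeR, Benjamini-Hochberg adjusted p = 0.00975), and the call was lost on the TPM scale and without DKK1-SE+/+ replicate 2 (-1.55).

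ADAMTS10, which associates with fibrillin microfibrils, was the only ADAMTS gene called higher. It gave 2.34, 2.42 and 2.06 TPM in DKK1-SE+/+ and 6.26, 5.10 and 6.17 TPM in DKK1-SE-/-. The genotypes were clearly apart, with a log2 fold change of 1.33 ± 0.17 (SE; edgeR, Benjamini-Hochberg adjusted p = 0.00018). With a GC-content offset this was 0.97, under the log2 limit of 1.2. ADAMTS13, which cleaves von Willebrand factor, was at 0.583 ± 0.25 and 0.497 ± 0.0808 TPM (SD, n = 3), overlapped, and had a log2 fold change of 0.15 ± 0.33 (SE) whose sign changed with the processing.

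Of 15 substrates and cofactors of ADAMTS proteases, 7 were not tested and 1 was not called. The other 7 were called, 5 as higher and 2 as lower, and changed by 1.2 or more on the log2 scale, beside 4.96% up and 3.7% down among all genes tested. The median log2 fold change of the 8 tested was 1.40. This count and median include COL2A1 and VCAN, which passed the filter on low counts mainly through DKK1-SE-/-. COL2A1 had 4, 0 and 4 counts in DKK1-SE+/+ against 98, 81 and 75, and VCAN 10, 7 and 8 against 29, 32 and 53. COL1A1, the procollagen chain whose propeptide ADAMTS14 can remove, went from 98.7 ± 6.72 to 12.3 ± 3.61 TPM (SD, n = 3), a log2 fold change of -3.06 ± 0.12 (SE), and COL5A1 had -1.30 ± 0.13 (SE). COL2A1, COL3A1 and the microfibril gene FBN1 were higher at 5.07 ± 0.48, 1.42 ± 0.14 and 2.67 ± 0.28 (SE). COL2A1 was low in both genotypes, at 0.127 and 1.77 TPM. FBN1 was low as well, at 0.467 and 1.3 TPM, a smaller change in TPM than in counts. The summed TPM of the list, led by COL1A1, fell from between 126 and 143 to between 35.5 and 47.5.

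The ADAM family holds relatives of the ADAMTS proteases, many of them membrane-bound. Only some of them shed surface proteins, and the list does not separate these. Of the 17 genes listed, 8 were not tested and 3 were not called. Another 1 was higher and 5 were lower, beside 39.3% called among all genes tested. The median log2 fold change of the 9 tested was -0.70. ADAM9, the most abundant, went from 137 ± 4.3 to 37.9 ± 13.5 TPM (SD, n = 3), a log2 fold change of -1.73 ± 0.18 (SE). ADAM22 and ADAM19 were lower at -1.04 ± 0.15 and -0.70 ± 0.11, and ADAM23 was higher at 2.67 ± 0.48 (SE) from a very low level. ADAM23 had 2, 8 and 7 counts in DKK1-SE+/+ against 27, 43 and 34, and passed the filter mainly through DKK1-SE-/-. Of the ADAMTS-like proteins, which lack the protease domain, 6 were tested: ADAMTSL1 (-1.37 ± 0.23) and THSD4 (-0.58 ± 0.11) were lower, ADAMTSL5 (0.75 ± 0.16, SE) was higher and 3 were not called, with a median of -0.14, again beside 39.3% called.

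Of 12 genes for activators, surface partners and other inhibitors of the MMPs 11 were tested, 3 were higher and 3 lower, with a median log2 fold change of 0.15. Among all genes tested, 19.8% were higher and 19.5% lower, with a median of 0.03. ITGAV, the integrin chain that pairs with several beta chains, had -1.16 ± 0.17, and the convertases PCSK6 and FURIN, the latter of which activates MMP14, had -0.84 ± 0.15 and -0.44 ± 0.12 (SE). CAV1, the coat protein of caveolae, was higher at 1.11 ± 0.10 and the convertase PCSK7 at 0.31 ± 0.10 (SE). A2M, a protease trap, had no count in any DKK1-SE+/+ sample and 25, 25 and 30 counts in DKK1-SE-/-. It is one of the 3 higher genes and passed the filter on low counts only through DKK1-SE-/-.

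Of 16 other matrix proteases 8 were tested and 3 called, close to the 39.3% called among all genes tested, with a median log2 fold change of -0.06. The cathepsin CTSD was higher at 0.90 ± 0.13 (SE), rising from 427 to 709 TPM, CTSB was lower at -0.89 ± 0.10 and the procollagen C-proteinase BMP1 at -0.36 ± 0.12 (SE), and 5 were not called. Of 17 AP-1 and ETS factors, whose elements are known from MMP and PLAU promoters, 16 were tested, 5 were higher, 2 were lower and 9 were not called, with a median of 0.29, so the share called was close to the 39.3% over all genes. ATF3 and FOSB were higher at 1.87 ± 0.13 and 1.86 ± 0.24, and the PEA3 factor ETV4 at 1.02 ± 0.15 (SE). ETS2 and ETV1 were lower at -0.79 ± 0.10 and -0.38 ± 0.14 (SE). FOSL1, the most abundant factor on this list, was not called, at 346 and 361 TPM.

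For most genes the change in TPM followed the change in counts. The log2 ratio of mean TPM differed from the log2 fold change by a median of -0.15 over the 13125 genes with a mean of at least 1 TPM, which was taken as the reference. MMP16 departed from it by 0.95, with a log2 ratio of 1.39 in TPM beside 0.59 in counts, and 0.411% of those genes departed by more. Counts per unit of TPM, relative to the median gene of the same library, were 5.59, 5.57 and 4.81 for MMP16 in DKK1-SE+/+ and 2.95, 3.27 and 2.67 in DKK1-SE-/-. This value follows the transcript length that the authors' TPM assumed in each sample, and was lower in all DKK1-SE-/- samples. ADAMTS7 departed by 0.93, at -1.06 in TPM beside -1.85 in counts. Which transcripts of these genes were present was not tested.

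**Figure D5:**
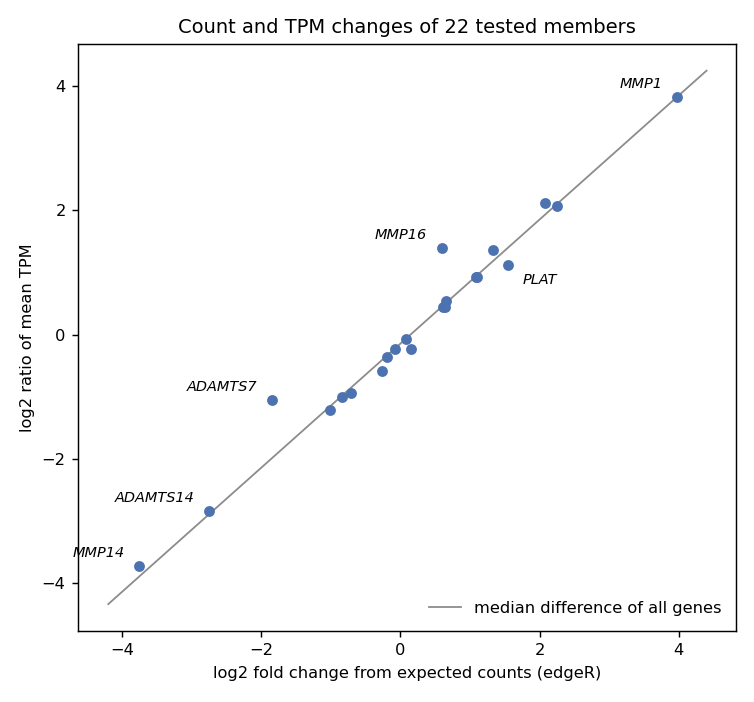
Log2 ratio of mean TPM against the edgeR log2 fold change from expected counts for the 22 tested genes, with a line displaced from equality by the median difference of all genes (-0.15). MMP16 and ADAMTS7 lie above the line by 0.95 and 0.93, and the other 20 lie near it.

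The remaining 28 genes were below the filter. No count was seen for MMP8, MMP26, MMP27 and ADAMTS8 in any sample, so these genes were not detectable at this depth. The other 24 had few counts. ADAMTS3 reached 25, ADAMTS2 20, ADAMTS17 16, ADAMTS6 15, MMP9 13, MMP28 12 and MMP23B 12 counts in their highest sample. Between 4 and 8 counts were the highest for MMP11, ADAMTS9, ADAMTS18, MMP21, MMP7, MMP10, MMP23A, ADAMTS4 and ADAMTS19, and MMP3, ADAMTS12, ADAMTS20, MMP13, MMP20, MMP12, ADAMTS5 and TIMP4 had at most 3. MMP23A and MMP23B are near-identical neighbors on chromosome 1, and reads between them could be split by the counting.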

How the data were processed

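Total RNA of 3 DKK1-SE-/- and 3 DKK1-SE+/+ samples of PANC-1 was made into stranded mRNA libraries and sequenced by a service company. The authors deposited an expected count per gene and sample, of which 32.3% of the values above 0 are not whole, and a TPM value normalized within each sample. The submitters' processing notes name the build hg38; the aligner, counter and annotation are not given in the sources used here. The deposited table also holds the authors' group mean TPM, fold changes, log2 fold changes and p-values with adjusted p-values, which were not used.

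After rounding of the expected counts to integers, genes were tested in R 4.3.3 with edgeR 4.0.16: filterByExpr by genotype (minimum count 10, here 0.546 CPM), TMM factors (0.939 to 1.04), and the quasi-likelihood F test over all 15179 genes that passed, with Benjamini-Hochberg adjustment over them. The SE of a log2 fold change is its size divided by the square root of F. Samples of the same genotype differed by more than sampling noise (chi-square per gene at least 4.12), so none was counted as a duplicate. Exact permutation of 3 against 3 samples cannot give a two-sided p below 0.1 and was not used for calls.

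The genes and gene lists were chosen with earlier results of these data known. All tested genes of the families are named, untested genes by their highest count, and at most 3 genes of each list in each direction by smallest p. Alternatives were DESeq2 1.42.0, RLE size factors or library size alone, no filter, the replicate number as a block, limma 3.58.1 on log2(TPM + 1) or log2(TPM + 0.1), a mean of at least 1 TPM, a GC-content offset in 40 bins, leaving out each sample, the linear reading of the limit of 1.2, and, chosen after seeing the data, only genes that reached the minimum count in all 6 samples. Positions are from GENCODE 44, where 62625 of 62703 identifiers were found, and promoters from RefSeq (GRCh38.p14). Figures were drawn with matplotlib 3.10.9 in Python 3.11.15.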

Additional observations from a re-analysis of the deposited data

How the results depend on the processing

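The 11 higher and 6 lower genes were the same counts with DESeq2, RLE size factors, library size alone and no filter on low counts, and all 17 were called again. With the replicate number as a block (replicate block), 11 were higher, 6 lower, 5 up and 3 down at p under 0.05 and the log2 limit of 1.2, again with all 17 called. The numbers did not pair the samples, since deviations of same-numbered samples correlated at -0.123, -0.0738 and -0.109. Leaving out each sample gave 8 to 11 higher, 5 to 6 lower, 4 to 6 up and 3 down. With a GC-content offset 9 were higher and 8 lower, as MMP17 and PLAUR lost their call and MMP15 and ADAMTS15 gained one.

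At p under 0.05 and the log2 limit of 1.2, no filter gave 9 up and 5 down, adding MMP9, MMP10, MMP28 and ADAMTS20 up and MMP23A and ADAMTS3 down, none of them called after adjustment. A GC-content offset gave 4 up and 4 down, as ADAMTS10 fell below the limit at 0.97 and MMP2 passed it at -1.27. Reading the limit of 1.2 as a linear fold change gave 11 up and 6 down. Limited to genes that reached the minimum count in all 6 samples, an alternative chosen after seeing the data, edgeR gave 9 higher, 3 lower, 3 up and 0 down. On log2(TPM + 0.1) in limma 5 were up and 3 down, but MMP16 (1.28) and MMP2 (-1.22) passed the limit while PLAT (1.01) and ADAMTS7 (-0.80) fell below it. On log2(TPM + 1) 1 was up and 1 down. On that scale MMP14 was -1.83, ADAMTS14 -0.718, TIMP3 0.655 and MMP19 0.583, each smaller in size than from counts and still called. With a mean of at least 1 TPM there were again 1 up and 1 down, with 6 called higher and 4 lower. Of the called genes, MMP19, TIMP3, ADAMTS14 and ADAMTS7 were not tested there. MMP24, PLAT and PLAUR were tested and lost their calls. The TPM scale shifted the median log2 fold change of all genes by -0.113, by -0.138 with 0.1 added and by -0.142 with the minimum TPM.

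Signs changed only for 2 genes that were not called. ADAMTS13 was -0.070 and -0.13 on log2(TPM + 1) and log2(TPM + 0.1), -0.22 with the GC-content offset, -0.23 with the offset and the replicate block, and between -0.0090 (without DKK1-SE-/- replicate 2) and 0.22 with a sample left out. TIMP2 was -0.078 on log2(TPM + 1) with or without the minimum TPM, -0.080 on log2(TPM + 0.1), -0.056 and -0.057 with the offset without and with the block, and between -0.024 (without DKK1-SE-/- replicate 1) and 0.13 with a sample left out. The cause was not tested. MMP14, MMP19, MMP25, ADAMTS7, ADAMTS13, ADAMTS14, TIMP3 and PLAT had 25 counts or fewer in at least 3 samples, and 3 samples of a single clone limit every comparison.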
